A study of Rattus norvegicus with 19 samples.

Results

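Expression of 6 globin and red cell gene rows was followed across 19 hippocampal libraries from male Sprague Dawley rats, namely the rows that carry the symbols *Hbb*, *Hba-a2*, *Hba-a3*, *Alas2* and *Slc4a1*. They were taken by symbol, 5 symbols on 6 of the 32623 rows, because *Hba-a2* stands on 2 Ensembl identifiers (ENSRNOG00000029886 and ENSRNOG00000047321). All 6 rows passed the filter on low counts. The genes were selected because globin reads were higher in carriers of a duplication than in wild-type rats, so the values of Dup/+ against wt are given as a description, with no test. The tests concern the deletion and the animals that carry the deletion and the duplication together.

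The animals were 6 wild-type (wt) rats, 5 with the duplication (Dup/+), 4 with the deletion (Del/+) and 4 with both (Del/Dup), and each gave 1 library. The rearrangements were made with CRISPR/Cas9 on rat chromosome 1, over the segment from *Sult1a1* to *Spn* that matches human 16p11.2. Del/+ rats had 1 copy of it, Dup/+ rats 3, and Del/Dup rats 2 as in wt, but on 1 deleted and 1 duplicated chromosome. All 4 genotypes were littermates from crosses of the 2 lines. The animals were adult, and their age in weeks at tissue collection is not given in the sources used here. For wt replicate 5 the sample description gave wt and the genotype field Dup/+. The library was counted as wt.

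Haemoglobin carries oxygen in red blood cells as a tetramer of 2 alpha and 2 beta globin chains, each holding a haem group. The alpha genes (*Hba-a2*, *Hba-a3*) and beta genes (*Hbb*) sit in separate clusters and are transcribed at very high levels in developing red cells. *Alas2* encodes the erythroid form of the first enzyme of haem synthesis, and *Slc4a1* encodes band 3, the anion exchanger of the red cell membrane. Young red cells keep globin RNA for a time after they lose the nucleus, so tissue that was not cleared of blood can contain globin RNA. Neurons are also known to transcribe alpha and beta globin at low levels. In bulk tissue, fewer cells of a type and less RNA per cell cannot be told apart.

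The GRCr8 gene table, a later assembly than the one the counts were made on, places *Hbb* on chromosome 1, as it does the 16p11.2 segment, the alpha globin genes and *Slc4a1* on chromosome 10, and *Alas2* on chromosome X. It lists *Hba-a1* and *Hba-a2* as separate genes, with synonyms that cross over, and which of these each *Hba-a2* row of the counts stands for could not be settled. The promoter sequences are shown as background on the genes, and no test tied them to the levels. That the globin rows had their highest group mean in the same genotype follows from how they were chosen. Likeness of the alpha genes was measured before the transcription start only, and the transcripts, from which the reads come, were not compared. Each sequence is the 250 bases before the transcription start from RefSeq (GRCr8), all on the minus strand, printed in the direction of transcription. The windows are chr1:167663722-167663971 for *Hbb*, chr10:15842581-15842830 for *Hba-a1*, chr10:15829139-15829388 for *Hba-a2* and chr10:15816944-15817193 for *Hba-a3*. Capitals mark 4 kinds of letters, searched on both strands. The first is CCAAT, the box bound by the factor NF-Y. The second is CACCC, the box bound by Klf1 and its relatives. The third, called the GATA letters here, is AGATAA and, as its other accepted form, the run TGATAA. The fourth is a match like the TATA box, either CATAAA as the shorter form or, as the longer form searched, ATATAAA.
Hbb: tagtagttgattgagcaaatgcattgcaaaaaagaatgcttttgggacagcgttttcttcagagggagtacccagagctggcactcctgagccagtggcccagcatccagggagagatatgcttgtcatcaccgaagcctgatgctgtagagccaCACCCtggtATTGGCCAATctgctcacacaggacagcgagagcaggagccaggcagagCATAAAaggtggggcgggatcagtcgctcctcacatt
Hba-a1: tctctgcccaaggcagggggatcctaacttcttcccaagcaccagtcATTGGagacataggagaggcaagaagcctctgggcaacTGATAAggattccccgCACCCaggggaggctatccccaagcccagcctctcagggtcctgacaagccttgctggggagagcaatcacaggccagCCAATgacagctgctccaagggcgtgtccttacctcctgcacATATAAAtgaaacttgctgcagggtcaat
Hba-a2: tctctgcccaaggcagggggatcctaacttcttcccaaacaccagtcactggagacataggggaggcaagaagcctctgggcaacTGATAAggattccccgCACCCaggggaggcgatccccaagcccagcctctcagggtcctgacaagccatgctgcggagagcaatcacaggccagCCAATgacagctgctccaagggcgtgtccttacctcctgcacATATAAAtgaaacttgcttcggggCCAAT
Hba-a3: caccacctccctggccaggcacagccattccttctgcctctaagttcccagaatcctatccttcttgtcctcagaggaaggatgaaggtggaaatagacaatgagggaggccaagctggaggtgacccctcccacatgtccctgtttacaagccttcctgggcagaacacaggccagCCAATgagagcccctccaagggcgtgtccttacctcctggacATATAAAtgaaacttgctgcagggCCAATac

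All 4 windows held CCAAT and a TATA-like match. In *Hbb* the latter lay 37 to 32 bases before the start, and 2 CCAAT matches on opposite strands stood side by side, from 86 to 77 bases before it. The GATA letters were found in *Hba-a1* and *Hba-a2*, in both cases 165 to 160 bases before the start, and CACCC in these 2 and in *Hbb*. Of 33469 promoter windows of the same length in the table, 34.0% held CCAAT, 49.2% CACCC, 16.9% the GATA letters and 15.0% a TATA-like match. The *Hba-a1* and *Hba-a2* windows were identical at 241 of 250 aligned positions (96.4%), whereas *Hba-a1* and *Hba-a3* shared 65.0% and *Hba-a1* and *Hbb* 48.0% of aligned positions. Reads that aligned to more than 1 place were not counted, so the alpha globin counts leave out any read that 2 copies share, and the split between the *Hba-a2* rows is uncertain.

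Depth ran from 16191192 to 38760645 gene reads per library. The hippocampal markers *Slc17a7* (1550 to 2226 counts-per-million, CPM) and *Neurod6* (189 to 275 CPM) were high in every library. The sum of 23 genes between *Sult1a1* and *Spn* followed the labels, with 1414 to 1651 CPM in the Del/+ libraries, 2567 to 2888 in Del/Dup, 2950 to 3132 in wt and 4209 to 4549 in Dup/+. The library wt replicate 5 (2966 CPM) lay in the wt range. Libraries differed in their multi-mapped share, the percentage of counted lines that were reads with more than 1 alignment. The values were 57.8% to 70.7% for Del/Dup, 45.1% to 50.5% for Dup/+ and 40.1% to 47.6% for wt, and 63.9% to 76.3% in Del/+ replicates 1 to 3 but 41.6% in Del/+ replicate 4. Choroid plexus RNA also differed by library. The summed level of 11 listed markers (10 tested, and *Otx2* at 0 in every library) ranged from 5.56 to 39.3 CPM in wt and from 9.16 to 428 in Dup/+, and reached 1325 in Del/+ (from 8.12) and 1268 in Del/Dup (from 45.3).

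*Hbb*, the adult beta globin chain, was read 439 to 1314 times per library. Its level in wt ran from 16.4 CPM through a median of 25.7 to 29.8. In Dup/+ replicates 1 to 5 it was 38.1, 45.5, 35.3, 40.8 and 43.3 CPM. Every Dup/+ library lay above every other library of the study. The Del/+ replicates 1 to 4 gave 25.96, 19.9, 19.2 and 33.5 CPM, and the Del/Dup replicates 2 to 5 gave 29.6, 23.0, 27.5 and 26.1 CPM. Of the Del/+ libraries 3, and all 4 Del/Dup libraries, fell inside the wt range, and Del/+ replicate 4 lay above it. Group means ordered as Dup/+ (40.6 ± 4.05, SD, n = 5), Del/Dup (26.5 ± 2.78, n = 4), Del/+ (24.6 ± 6.67, n = 4) and wt (24.0 ± 5.96, n = 6), and after the first step the ranges of neighbouring groups overlapped.

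The alpha globin row *Hba-a2* (ENSRNOG00000029886) had the most reads of the 6, 1351 to 3360 per library. It was at 66.4, 74.9 and 87.7 CPM in the lowest, median and highest wt library, and at 108, 115, 95.95, 104 and 133 CPM in Dup/+ replicates 1 to 5. Del/+ replicates 1 to 4 had 68.4, 55.4, 60.9 and 85.5 CPM, and Del/Dup replicates 2 to 5 had 65.6, 93.2, 74.2 and 68.6 CPM. Again no other library reached the lowest Dup/+ library, although Del/Dup replicate 3 came within 3 CPM of it. Of the Del/+ libraries 2, and 1 Del/Dup library, lay below the wt range.

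The other *Hba-a2* row (ENSRNOG00000047321) was also highest in Dup/+ replicate 5. It measured 30.4, 32.3 and 39.5 CPM in the lowest, median and highest wt library and 53.4, 51.2, 44.6, 51.7 and 62.8 CPM in Dup/+ replicates 1 to 5. Dup/+ replicate 3 (44.6 CPM) and Del/Dup replicate 3 (44.3 CPM) were nearly level, so the gap between Dup/+ and the rest was small here. Del/+ replicates 1 to 4 gave 30.8, 25.5, 27.95 and 40.3 CPM, and the other Del/Dup replicates, 2, 4 and 5, gave 37.2, 32.5 and 33.9 CPM.

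*Hba-a3*, a further alpha globin gene with 21 to 87 reads per library, overlapped between Dup/+ and wt. Its level was 1.22, 1.68 and 2.67 CPM in the lowest, median and highest wt library. Dup/+ replicates 1 to 5 were at 2.11, 2.32, 2.15, 2.42 and 3.32 CPM, and only replicate 5 lay above the wt range. Del/+ libraries ran from 1.45 to 1.75 CPM and Del/Dup libraries from 1.10 to 1.998 CPM, all below the lowest Dup/+ library.

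*Alas2*, which supplies haem to globin in red cell precursors, had 48 to 114 reads per library. The wt libraries ran from 2.08 through 2.55 to 3.22 CPM. The Dup/+ libraries were the closest to one another of any group, at 3.72, 3.70, 3.70, 4.08 and 3.92 CPM, all above every other library. Del/+ replicates 1 to 4 had 2.25, 1.97, 2.29 and 3.06 CPM, and Del/Dup replicates 2 to 5 had 2.80, 3.19, 2.30 and 3.25 CPM, of which replicate 5 passed the highest wt library by a narrow margin.

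*Slc4a1* was at the edge of detection, with 5 to 29 reads per library. The wt libraries ran from 0.426 through 0.561 to 0.706 CPM and the Dup/+ libraries from 0.478 to 1.004 CPM, so that 3 of 5 Dup/+ libraries lay inside the wt range. Del/+ replicates 1 to 3 (0.242, 0.369 and 0.342 CPM) and 3 of 4 Del/Dup libraries (0.419, 0.390 and 0.196 CPM) lay below it. Del/+ replicate 4, at 0.726 CPM, lay above it.

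**Figure D1:**
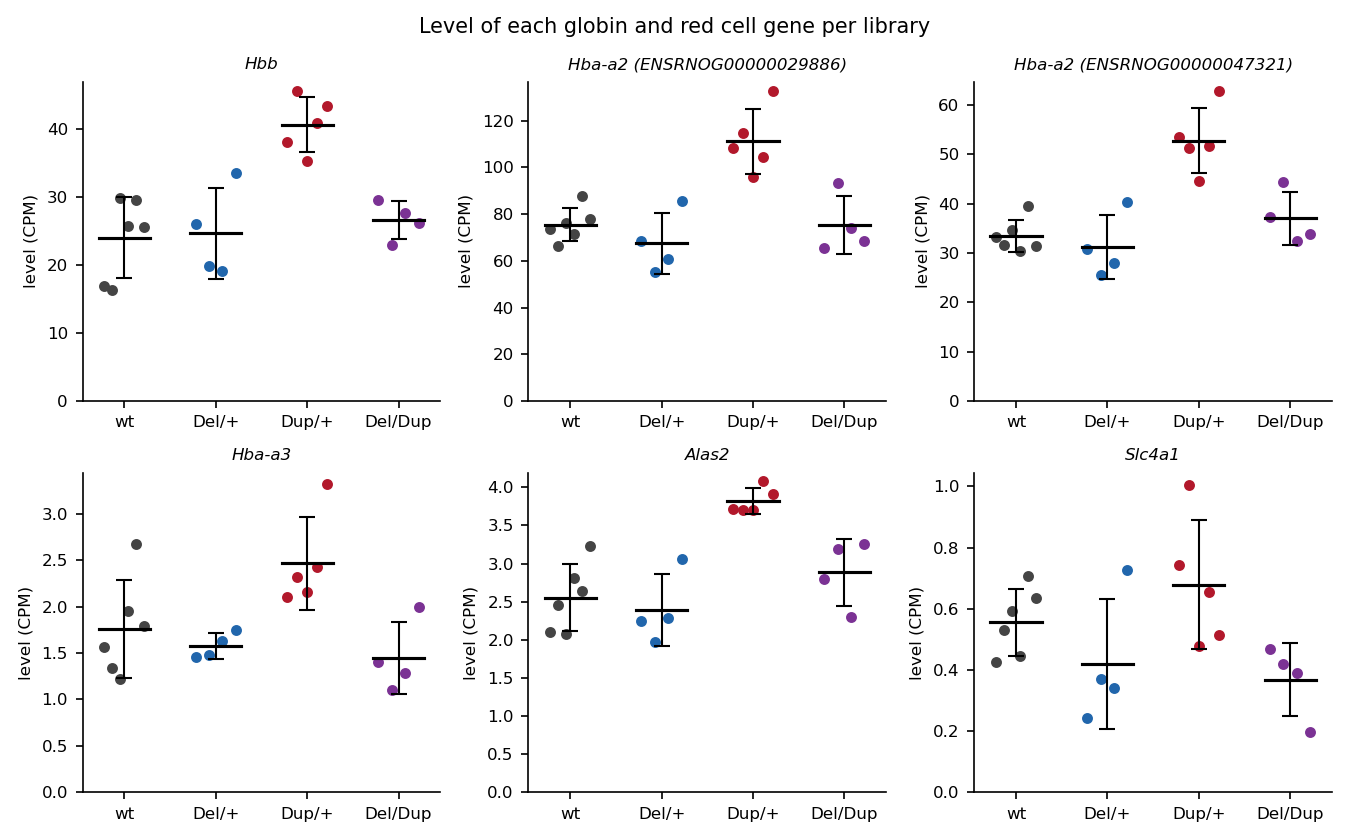
Level in CPM (vertical axes, from 0) of each of the 6 rows by genotype group. Each point is a library in order of its replicate number, the bar is the group mean and the whisker 1 SD. For *Hbb*, both *Hba-a2* rows and *Alas2* the 5 Dup/+ points lie above all other points, and the highest Del/+ point in each panel is replicate 4.

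In the contrast that chose the genes, Dup/+ against wt, the fitted log2 fold change was 0.76 for *Hbb*, 0.56 and 0.66 for the *Hba-a2* rows (in the order above), 0.47 for *Hba-a3*, 0.58 for *Alas2* and 0.28 for *Slc4a1*. The median of the 6 was 0.57, against a median of -0.0018 over all 15440 genes tested. In 4 of 6 rows every Dup/+ library lay above every wt library, which held for 0.674% of all genes. This count follows from the selection. With wt replicate 5 counted as Dup/+ the values were 0.76 for *Hbb*, 0.55 and 0.65 for *Hba-a2*, 0.65 for *Hba-a3*, 0.51 for *Alas2* and 0.36 for *Slc4a1*. That library was the highest wt library in 4 of 6 rows.

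The deletion was compared with wt to ask whether losing a copy moves these genes. No row was called in Del/+ (0 of 6, and 0 of 6 at an unadjusted p under 0.05, with 0.771% of all genes called). The log2 fold change of *Hbb* was 0.05 (SE 0.167, 95% interval -0.30 to 0.40, edgeR adjusted p = 0.911). Those of the *Hba-a2* rows were -0.16 (SE 0.114, -0.40 to 0.08, adjusted p = 0.486) and -0.10 (SE 0.115, -0.34 to 0.14, adjusted p = 0.695). For *Hba-a3* it was -0.15 (-0.56 to 0.26), for *Alas2* -0.08 (-0.37 to 0.21) and for *Slc4a1* -0.32 (-0.87 to 0.22). The intervals allow changes in either direction and are widest for the row with the fewest reads.

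A single animal set the upper end of the Del/+ group. Del/+ replicate 4 was the highest of the 4 Del/+ libraries in 6 of 6 rows, and it was also the one with a share of multi-mapped reads (41.6%) like that of wt. Without it the log2 fold change against wt was -0.14 for *Hbb*, -0.29 and -0.25 for the *Hba-a2* rows, -0.19 for *Hba-a3*, -0.21 for *Alas2* and -0.68 for *Slc4a1*, and none was called. With a term for libraries over 55% multi-mapped reads the values were 0.49 for *Hbb*, 0.18 and 0.27 for *Hba-a2*, -0.01 for *Hba-a3*, 0.26 for *Alas2* and 0.35 for *Slc4a1*, again with none called. That term rests on this animal, the single Del/+ or Del/Dup library below the limit. Within the libraries of low share there is 1 Del/+ animal, so no within-batch value was formed. The part of the share of multi-mapped reads in the levels cannot be told apart from genotype for Del/Dup.

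Del/Dup rats have the wt copy number and carry the duplicated chromosome. Against wt, with which this comparison shares the 6 control libraries of the selecting contrast, 0 of 6 rows were called (0 at an unadjusted p under 0.05, with 0.0907% of all genes called). *Hbb* was at 0.15 (SE 0.169, 95% interval -0.20 to 0.51, adjusted p = 0.680), the *Hba-a2* rows at 0.00 (-0.24 to 0.23) and 0.14 (-0.10 to 0.38), *Hba-a3* at -0.26 (-0.69 to 0.17) and *Alas2* at 0.17 (-0.12 to 0.47). *Slc4a1* had the lowest value, -0.52 (SE 0.282, -1.11 to 0.07, adjusted p = 0.359). With the term for libraries over 55% multi-mapped reads *Hbb* stood at 0.78, the *Hba-a2* rows at 0.47 and 0.66, *Hba-a3* at -0.07, *Alas2* at 0.65 and *Slc4a1* at 0.51, with adjusted p-values of 0.208 to 0.957.

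Del/Dup against Del/+ sets the duplicated chromosome against a normal one, both beside a deleted one. Its group means use no library of the contrast that chose the genes, but its spread was estimated over all 19 libraries. None of the 6 rows was called (0 at an unadjusted p under 0.05, with 0.175% of all genes called). The largest differences were 0.25 for *Alas2* (SE 0.155, 95% interval -0.07 to 0.57, adjusted p = 0.704) and 0.24 for *Hba-a2* ENSRNOG00000047321 (SE 0.127, -0.02 to 0.50, adjusted p = 0.657). *Hbb* was at 0.10 (-0.28 to 0.49), the other *Hba-a2* row at 0.15 (-0.11 to 0.42), *Hba-a3* at -0.11 (-0.58 to 0.35) and *Slc4a1* at -0.20 (-0.83 to 0.43). Among libraries over 50% multi-mapped reads, which leaves out Del/+ replicate 4, *Hbb* was at 0.30, the *Hba-a2* rows at 0.29 and 0.40, *Hba-a3* at -0.06 and *Alas2* at 0.40, none called, and *Slc4a1* did not pass the filter on low counts there. Whether the duplication acted differently on the normal and on the deleted background was not tested, because 1 of its 2 contrasts chose the genes.

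**Figure D2:**
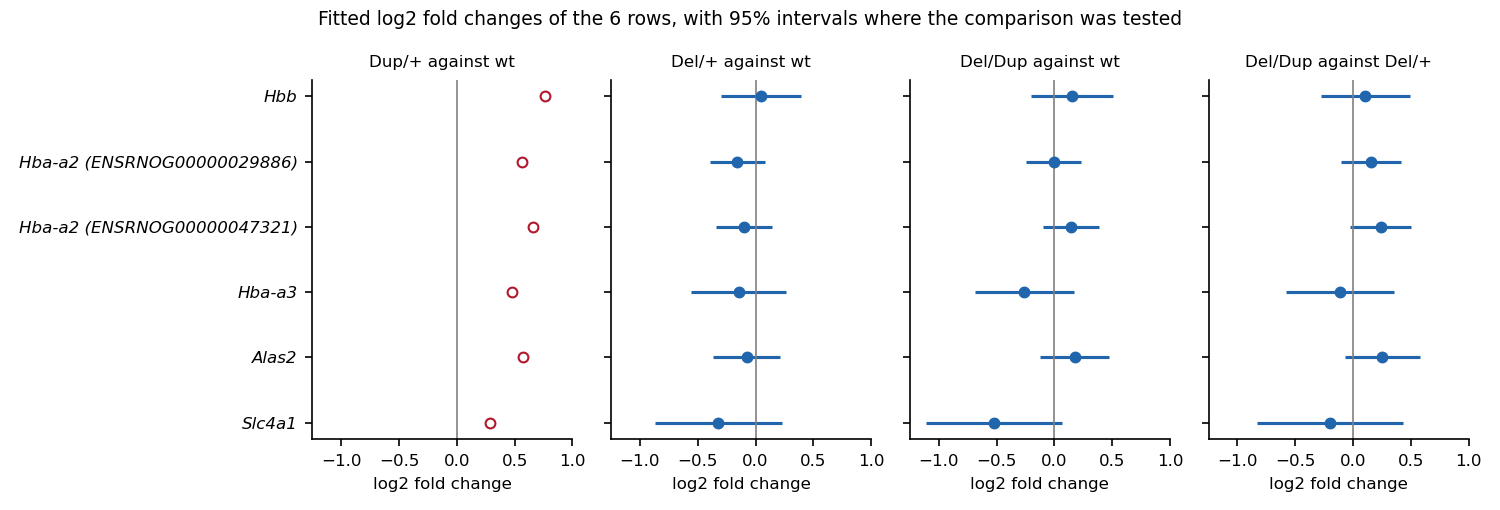
Fitted log2 fold changes (horizontal axes) of the 6 rows in 4 comparisons. Open red points are the selecting contrast, Dup/+ against wt (0.28 to 0.76), shown without intervals. Filled blue points have lines for the 95% interval, and each of these intervals crosses 0.

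The choroid plexus markers varied widely between libraries of 1 group. Their sum reached 1325 CPM in Del/+ replicate 3, 1268 in Del/Dup replicate 2 and 428 in Dup/+ replicate 2, whereas Del/+ replicates 1 and 2 (11.6 and 8.12 CPM) lay inside the wt range and all 4 Del/Dup libraries above it. All 10 tested had a log2 fold change above 0 in Del/+, Del/Dup and Dup/+ against wt, with medians of 3.25, 3.598 and 1.60. Unadjusted p-values were under 0.05 for 10 of 10 in Del/+ and in Del/Dup, and for 2 of 10 in Dup/+. Over all genes 18.4%, 16.2% and 8.94% passed the same limit in that order, and 0 of the markers were called. The relation of *Hbb* to the mean of these markers across 19 libraries, with group means removed, missed the threshold (r = 0.08, rho = 0.24, permutation, adjusted p = 0.988 and 0.606, and r = 0.35 without the 2 farthest libraries). Endothelial markers, summed, stayed at 232 to 294 CPM over all libraries. Of the 9 found, *Cldn5* had 0 reads in every library, and 0 of the 8 tested were called in any comparison.

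The share of globin reads that fell on *Hbb* varied between libraries of the same genotype. Of the reads on the 4 globin rows, *Hbb* took 13.5% (95% Clopper-Pearson interval 12.5% to 14.5%) in wt replicate 1 and 14.1% (13.0% to 15.3%) in wt replicate 2, but 21.0% (19.7% to 22.3%) in wt replicate 3. Del/Dup replicate 3 was also low at 14.2% (13.0% to 15.5%), beside 22.1% (20.6% to 23.7%) in Del/Dup replicate 2. The other 16 libraries lay between 17.5% and 22.1%. The intervals cover counting error only, and libraries of 1 group differed by more than that over the genes as a whole in each of 37 pairs (chi-square per degree of freedom 3.5997 to 59.9). With 1 library per animal, a difference between animals and one between libraries cannot be told apart. Group means were 17.6% ± 3.09 (SD, n = 6) in wt, 19.6% ± 1.51 (n = 4) in Del/+, 19.7% ± 1.34 (n = 5) in Dup/+ and 19.2% ± 3.42 (n = 4) in Del/Dup. These are shares of reads, not adjusted for gene length, and are compared between libraries only.

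**Figure D3:**
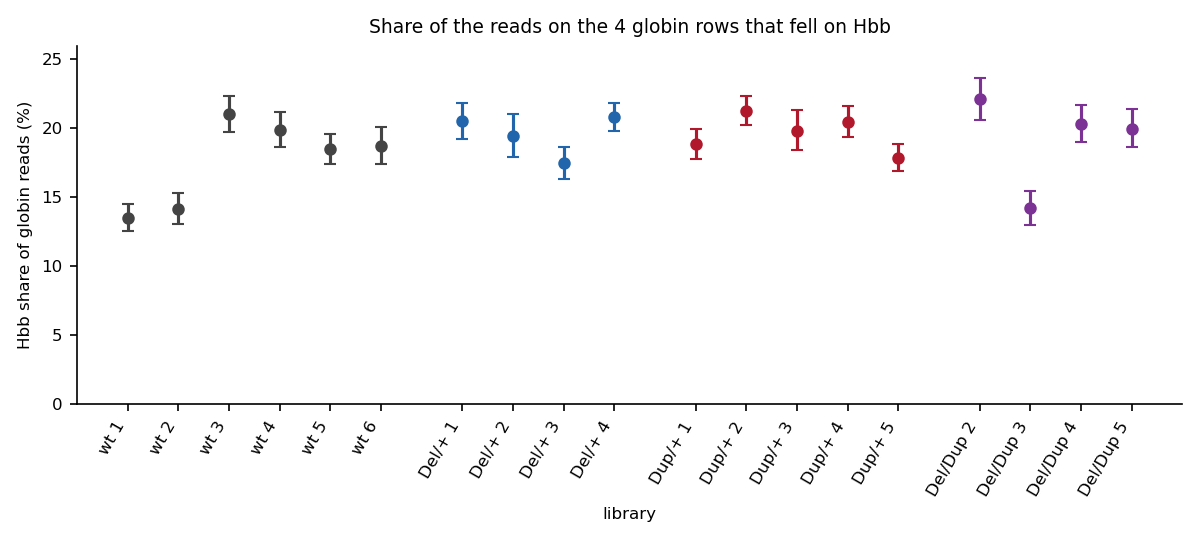
Share of the reads on the 4 globin rows that fell on *Hbb* (vertical axis, percent), 1 point per library grouped by genotype, with 95% Clopper-Pearson intervals. The 3 lowest libraries lie near 14% (wt replicates 1 and 2 and Del/Dup replicate 3) and the rest between 17.5% and 22.1%.

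The 2 *Hba-a2* rows kept a steadier ratio. ENSRNOG00000047321 took 28.7% to 33.1% of their joint reads in 18 libraries and 36.2% (34.2% to 38.2%) in Del/Dup replicate 2. *Alas2* had 1.46% to 2.49% as many reads as the 4 globin rows together, with group means of 1.91% ± 0.356 (SD, n = 6) in wt, 1.92% ± 0.128 (n = 4) in Del/+, 1.86% ± 0.20 (n = 5) in Dup/+ and 2.06% ± 0.330 (n = 4) in Del/Dup. Summed, the 4 globin rows made up 0.0184% to 0.0244% of gene reads in the Dup/+ libraries. The corresponding shares were 0.0114% to 0.0159% for wt, 0.0132% to 0.0159% for Del/Dup and 0.0102% to 0.0168% for Del/+.

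**Figure D4:**
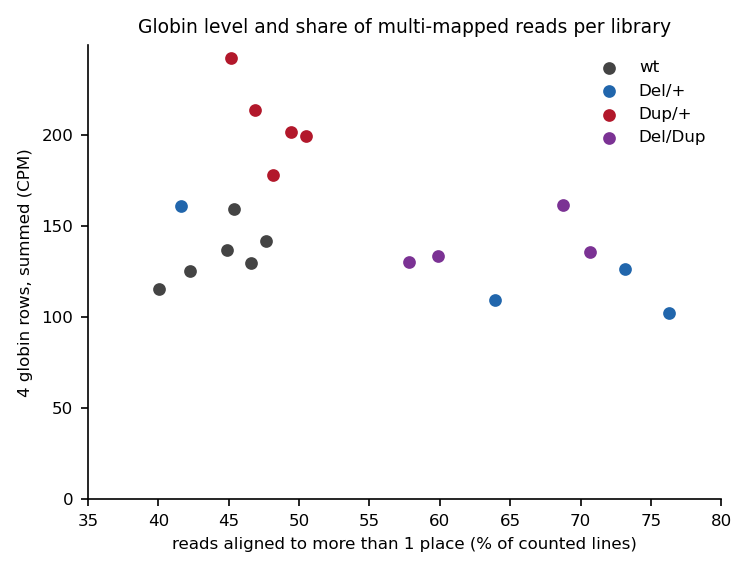
Summed level of the 4 globin rows in CPM (vertical axis, from 0) against the multi-mapped share (horizontal axis, percent of counted lines), 1 point per library. The Dup/+ libraries lie at 178 to 242 CPM and 45.1% to 50.5%, and the other libraries at 102 to 162 CPM over the whole range of shares.

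Relations of *Hbb* with the other members within genotypes missed the adjusted threshold. Across the 19 libraries, with group means removed, the log2 CPM of *Hbb* correlated with that of *Hba-a2* ENSRNOG00000029886 at r = 0.52 (permutation p = 0.0309, adjusted over 9 relations p = 0.178) and rho = 0.54 (permutation p = 0.0293, adjusted p = 0.147). For the other *Hba-a2* row r was 0.48 and rho 0.44, for *Slc4a1* 0.47 and 0.51, for *Hba-a3* 0.37 and 0.37, and for *Alas2* 0.36 and 0.22 (permutation, adjusted p = 0.147 to 0.637 over these rows and both measures). Without the 2 libraries farthest from the median of the other measure, r was 0.51, 0.50, 0.51, 0.31 and 0.29 in the same order. Among the 12 libraries with at most 55% multi-mapped reads r was 0.61, 0.42, 0.49, 0.42 and 0.28 in that order, and among the 7 above it -0.17, -0.04, -0.23, 0.08 and -0.23.

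The relations of *Hbb* with measures of the libraries also missed the threshold. With the share of multi-mapped reads r was -0.28 and rho -0.05, with log2 total count 0.00 and -0.01, and with the mean of the endothelial list 0.05 and 0.12 (permutation, adjusted p = 0.702 to 0.988). In the 12 libraries of low share r with the share was 0.65, and in the 7 others 0.01. Leaving out the 2 farthest libraries gave -0.25 for the share.

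The genes whose deviations from group means were most like those of *Hbb* were not globins. Of 13619 other tested genes at 1 CPM or more, the 10 closest had r = 0.74 to 0.82 over 19 libraries, led by *Cnot8* (a subunit of the CCR4-NOT deadenylase complex, r = 0.82), AY172581.19 (0.80), RF00231 (0.79), *Il1rl1* (the receptor of interleukin 33, 0.78), *Pdgfc* (a platelet-derived growth factor, 0.78) and *Cep78* (a centrosomal protein, 0.78), then *Acacb*, AABR07060133.1, *Kif23* and *Amt*. The 5 other rows would rank between 305 and 1290 in that list. The 10 were picked as the highest of 13619 values over 19 libraries, and whether such values pass what chance gives was not tested. With group means kept, the *Hba-a2* rows were the closest, at r = 0.80 and 0.81, with none of the 13619 above either, followed by *Syndig1l* (0.80), *Nkain1* (0.79), *Il1rl1* (0.79), LOC103694857 (0.78) and *Nfe2l2* (0.77), and that order contains the difference that chose the genes.

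Other globin chains were searched for in the same counts. The embryonic and fetal type chains *Hbe1*, *Hbe2*, *Hbg1* and *Hbz* had 0 reads in every library. LOC689064 carries the NCBI identifier of *Hbb-bs*, a further beta globin gene, and its reads fell into a low and a high range within each genotype. They numbered 60, 42, 48, 31, 5 and 42 in wt replicates 1 to 6, 10, 10, 28, 7 and 76 in Dup/+ replicates 1 to 5, 5, 51, 40 and 4 in Del/Dup replicates 2 to 5 and 2, 29, 57 and 10 in Del/+ replicates 1 to 4. In all, 8 libraries had 2 to 10 reads and 11 had 28 to 76, and each genotype had animals in both ranges. The 3 libraries with the lowest *Hbb* share of globin reads, wt replicates 1 and 2 and Del/Dup replicate 3, had 60, 42 and 51 of them. The other libraries of the high range had *Hbb* shares from 17.5% (Del/+ replicate 3, 57 reads) to 21.0% (wt replicate 3, 48 reads). A relation between the reads and the share was not tested. No difference was called in the 3 tested comparisons (edgeR adjusted p = 0.668 for Del/+ and 0.943 for Del/Dup against wt).

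LOC103694857, listed here as a candidate globin entry that the GRCr8 table does not name, had 87 to 291 reads per library. Its level was 5.11 to 6.63 CPM in wt, 6.93 to 11.4 in Dup/+, 4.91 to 7.12 in Del/Dup and 3.57 to 7.82 in Del/+, where replicate 4 was again the highest. It was not called in the 3 tested comparisons. In Dup/+ against wt its log2 fold change was 0.58 (SE 0.153). That contrast chose the globins, so the value is given as a description, with no test.

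**Figure D5:**
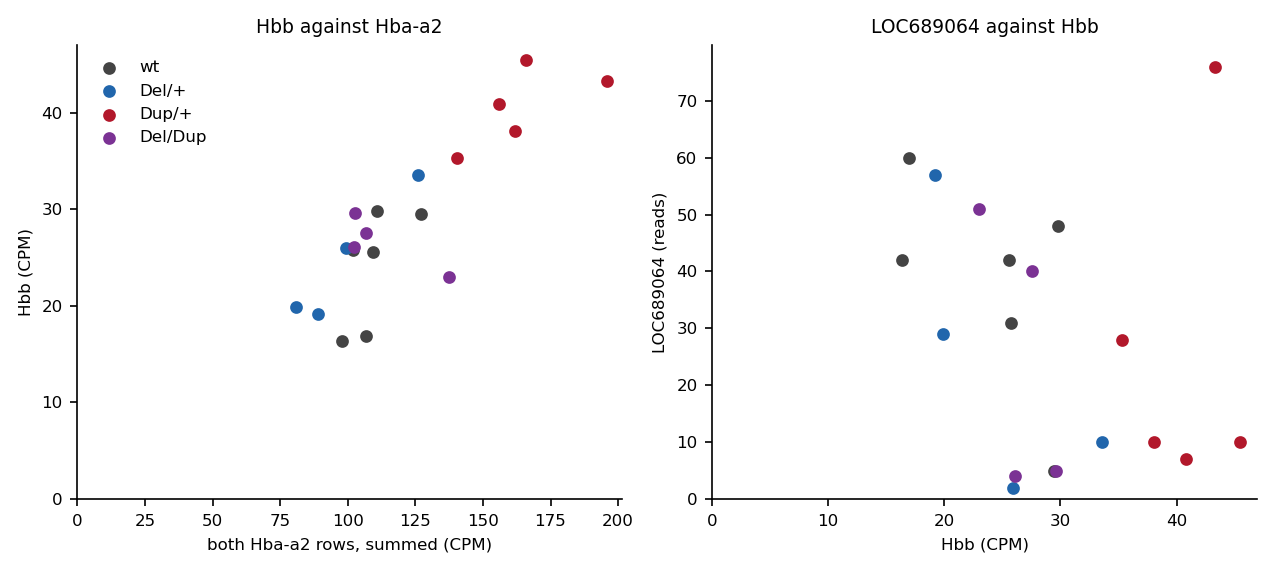
Left, *Hbb* against the sum of both *Hba-a2* rows, both in CPM and from 0. Right, reads on LOC689064 against *Hbb* in CPM. Points are libraries coloured by genotype. On the left the Dup/+ points form the upper right group, and on the right 8 libraries lie at 2 to 10 reads and 11 at 28 to 76, with every genotype in both.

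Other genes tied to red cells or to globin were taken as 6 lists of 78 symbols, of which 3 symbols are the globins of other tissues (*Ngb*, *Cygb* and *Mb*). The count table held 65 of these, and 47 passed the filter and entered the test. Of these 47, 1 was called in Del/+ against wt and 0 in each of the other 3 comparisons. The shares called over all genes tested were 0.771% in Del/+, 0.0907% in Del/Dup and 0.272% in Dup/+ against wt, and 0.175% in Del/Dup against Del/+. Unadjusted p-values were under 0.05 for 11 in Del/+, 7 in Del/Dup and 7 in Dup/+ against wt, and for 3 in Del/Dup against Del/+. Over all genes tested the shares under that limit were 18.4%, 16.2%, 8.94% and 8.48% in the same order.

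Haem synthesis showed no call. In the list of 13 enzymes and carriers, with *Alas1* (the form of the first enzyme used outside red cells, 48.9 to 56.1 CPM), *Abcb10* (32.8 to 38.2 CPM) and *Fech*, which inserts iron into haem (30.4 to 37.2 CPM), 0 were called and 0 had an unadjusted p under 0.05 in any of the 4 comparisons. Their log2 fold changes in Dup/+ against wt ran from -0.12 to 0.08, with a median of -0.02.

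In the list for the red cell membrane and skeleton 14 of 18 genes found were tested and 0 called. Its most abundant members, *Sptb* (beta spectrin, 271 to 427 CPM), *Dmtn* (194 to 241) and *Add2* (169 to 226), are also made in neurons. Those close to red cells, *Rhag* (0 to 3 reads), *Kel* (0 to 4) and *Ermap* (0 to 5), were at or near 0. Among enzymes, iron uptake and haemoglobin clearance, 0 of 10 tested were called, with *Car2* (146 to 222 CPM), *Prdx2* (146 to 183) and *Tfrc*, the transferrin receptor (131 to 184), the most abundant. *Car1*, *Pklr* and *Hpx* had at most 9 reads.

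Of the erythroid regulators, *Gata1* had 0 reads in every library, *Gfi1b* at most 1, *Ahsp*, the chaperone of free alpha chains, at most 10, and *Klf1*, the activator of beta globin, 19 to 53. *Zfpm1*, which encodes the GATA partner FOG1, was lower in Del/+. It ran from 10.4 to 13.3 CPM in the 4 Del/+ libraries and from 15.0 to 18.4 CPM in wt, with no overlap (log2 fold change -0.45, SE 0.103, edgeR adjusted p = 0.0448). It was called in 5 of the 19 fits that left out 1 library and in none of the 6 that left out a wt library, nor with the replicate block, the multi-mapped term at 55% or wt replicate 5 counted as Dup/+.

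Markers of other blood cells were sparse. The platelet list, summed, lay at 1.90 to 2.86 CPM in wt, 2.44 to 2.98 in Dup/+, 2.52 to 2.94 in Del/Dup and 2.17 to 2.71 in Del/+, with *Ppbp* at most 1 read and *Pf4* at 2 to 22. The neutrophil genes *S100a8* and *S100a9* had at most 8 reads. Over 11 leukocyte markers found the sum was 1.43 to 5.92 CPM in wt and 1.59 to 5.66 in Dup/+, of which *Cd3e* alone made 0.876 to 5.33 CPM and 0.989 to 5.08 CPM. Of the 4 tested platelet markers and the 1 tested leukocyte marker 0 were called in any comparison.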

How the data were processed

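RNA was extracted from the hippocampus of 19 rats, 1 library each. The libraries were prepared by the authors with the TruSeq Stranded Total RNA kit. The labels describe both rRNA removal and polyA RNA, and which holds was not settled. Single-end reads of 50 bases were aligned by the authors with Hisat2 to Rno6 (rn6, Ensembl 96) and counted with HTSeq-count. What they deposited are unnormalized counts, 1 whole number per gene and library. The 5 summary lines of each file were left out of the gene table, and the line for reads aligned to more than 1 place gave the multi-mapped share.

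Genes and lists were chosen with earlier results of these data known. Counts were filtered with filterByExpr (15440 genes tested) and scaled by TMM. Levels are counts-per-million (CPM) on that scale. Testing used glmQLFit and glmQLFTest of edgeR 4.0.16 (R 4.3.3), a quasi-likelihood test, with 19 libraries in 1 fit, a mean per genotype and Benjamini-Hochberg adjustment over all genes. Log2 fold changes used a prior count of 2. DESeq2 1.42.0 was an alternative. Correlations used deviations from group means and 100000 two-sided permutations within groups (SciPy 1.17.1). The fits were tested on simulated counts. Named are the 6 rows, list genes called in any comparison or otherwise up to 3 most abundant per list, and the genes closest to *Hbb*. Genes named beyond that rule, among them those at or near 0 reads, were chosen after their values were seen. Groups came from the sample descriptions. P-values measure the spread between animals, and intervals on shares cover counting error only. Alternatives were other scalings, filters and tools, terms for the multi-mapped share, the other reading of wt replicate 5 and each library left out.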

Additional observations from a re-analysis of the deposited data

Results flagged for a closer look

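*Hba-a3* in Dup/+ replicate 5 stood apart from its group, at 3.32 CPM beside 2.11 to 2.42 CPM in the other 4 Dup/+ libraries, a gap of 0.738 of the group's range against a critical value of 0.71. It was the single flag among 44 checks of groups, of which chance marks about 1 in 20. The same library was the highest of Dup/+ in both *Hba-a2* rows.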

How the results depend on the processing

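The count of members called was 0 in the 3 tested comparisons under every alternative that was run, and in Dup/+ against wt the fold change of each of the 6 rows stayed above 0, from 0.68 to 0.84 for *Hbb* and from 0.11 to 0.40 for *Slc4a1*. Fold changes that were not called turned sign in some fits, and the cause was not tested. *Hba-a2* ENSRNOG00000029886 in Del/Dup against wt, near 0 as reported, kept its sign in 17 of 29 fits, and *Hbb* in Del/+ against wt in 27 of 30, all but those without wt replicate 1, wt replicate 2 or Del/+ replicate 4. Replicate numbers did not pair the animals (r over 0.1 in 2 of 24 pairs, -0.172 to 0.122). With a replicate block *Hbb* stood at 0.10 in Del/+ and 0.15 in Del/Dup against wt, and the block called 72 genes in Del/+, 7 in Del/Dup and 22 in Del/Dup against Del/+. Calls in the pathway lists in Del/+ against wt, 1 as reported, were 3 with DESeq2, 2 with the multi-mapped term at 50%, 0 when wt replicate 5 was taken for a Dup/+ animal, 0 with the replicate block, and 0 to 3 with 1 library left out. In Dup/+ against wt they were 1 with DESeq2 and 1 with only the 2 groups fitted, in both cases LOC103694857. Because that contrast chose the globins, these calls are no test of this gene. Over all genes, calls ranged from 46 without Del/+ replicate 2 to 591 with DESeq2 in Del/+ (119 as reported), from 2 with the term at 50% to 216 without Del/Dup replicate 3 in Del/Dup (14), from 22 to 74 in Del/Dup against Del/+ (27) and from 12 with wt replicate 5 as Dup/+ to 80 with DESeq2 in Dup/+ (42). The term at 55% and the split of correlations by it were chosen after the shares were seen. *Slc4a1*, with at most 29 reads, is limited by depth.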

Other observations

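Globins of other tissues were also measured, and none was called in the fit reported above. *Ngb*, neuroglobin of neurons, was at 6.02, 5.62, 3.97 and 5.75 CPM in Del/+ replicates 1 to 4, beside 3.14 to 4.35 CPM in wt, 2.58 to 4.12 CPM in Dup/+ and 4.36 to 4.86 CPM in Del/Dup. Of the Del/+ libraries 3 lay above every other library, and replicate 3 lay inside the wt range. The log2 fold change against wt was 0.49 (SE 0.129, edgeR adjusted p = 0.0718, not called), and *Ngb* was called with DESeq2, with the term for over 50% multi-mapped reads and without Del/+ replicate 3. *Cygb*, cytoglobin, ran from 25.4 to 35.2 CPM, and *Mb*, myoglobin, had at most 4 reads.

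*Cd3e*, a T cell receptor subunit chosen here after its values were seen, ran from 0.711 to 5.33 CPM, with at least 1 library above 4 CPM in every genotype. Its partner *Cd3g* had at most 2 reads.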
